A study of Mus musculus with 8 samples.

Results

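The genes described here are the chemokines and the chemokine receptors of Py230 tumours in obese and in lean mice. Py230 is a line of mouse breast adenocarcinoma cells. Members were taken by symbol: the CC, CXC, CX3C and XC ligands, Ppbp and Pf4, the conventional receptors Ccr, Cxcr, Cx3cr1 and Xcr1, and the atypical receptors Ackr1 to Ackr4. The rule matched 69 of the 50143 gene IDs in the deposited count file, and these stood for 63 distinct symbols, 41 ligands and 22 receptors, once 2 IDs whose counts repeated those of Ccl27a and further IDs listed at 0 were set aside. The obese group was 4 tumours from female C57BL/6 mice on a high-fat diet with 60% of calories as fat (5.1 kcal/g), who averaged 35% more body weight. The lean group was 4 tumours from females of the same strain on a regular diet with 10% of calories as fat (3.6 kcal/g). All mice of both groups were ovariectomized at an age of 6 weeks, began their diet 2 weeks later, ate it for 6 weeks before Py230 cells were injected into mammary gland 4, and had their tumours removed on day 56. The tumours came from a single cell line, and the hosts were of an inbred strain with an intact immune system. Each sample is whole-tumour RNA, in which cancer cells, leukocytes, vessels and stroma are mixed, so fewer cells of a type and less RNA per cell cannot be told apart. The labels do not tie tumours to separate animals, and p-values measure the spread between these 8 tumours.

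Chemokines are small secreted proteins that steer leukocytes along concentration gradients by binding G protein-coupled receptors on them. CC ligands such as Ccl2 draw monocytes and macrophages, CXC ligands of CXCR2 draw neutrophils, CXCR3 ligands induced by interferon draw effector T cells and NK cells, and homeostatic ligands such as Cxcl12 and Cxcl13 hold stem cells and lymphocytes in place. Atypical receptors bind chemokines without G protein signalling and remove or transport them. In mammary tumours, CCL2 and its receptor CCR2 are best known for recruiting the monocytes that become tumour macrophages.

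Total counts ran from 25.7 to 66.7 M reads per tumour. The CPM values given here are counts per 1 M counts after TMM scaling, listed in the order of replicates 1 to 4 within a group. A count of 0 allows up to 3 counts, which came to 0.0494 to 0.124 CPM. Markers of the cells around the chemokines differed between the groups. Over all tested genes 30.9% were higher and 28.4% lower in obese tumours. Of 10 T cell markers 9 were lower and 0 higher in obese tumours, of 6 B cell markers 5 were lower and 0 higher, of 12 macrophage and monocyte markers 6 were higher and 1 lower, and of 7 epithelial markers 4 were lower and 0 higher. The summed T cell markers lay between 32.1 and 91.2 CPM in obese tumours and between 115 and 293 CPM in lean tumours. The summed B cell markers lay between 4.27 and 9.89 CPM in obese and between 24.9 and 56.7 CPM in lean tumours, and the summed macrophage markers between 1944 and 2491 CPM in obese and between 1319.5 and 3598 CPM in lean tumours. Ptprc, which all leukocytes carry, did not pass, and 2 of 6 pan-leukocyte markers were higher and 0 lower. The summed epithelial markers, which stand for the labelled tumour type, were 63.0, 287, 699.5 and 243 CPM in obese tumours, against 2783, 1873, 1908 and 1854 CPM in lean tumours, and Krt5 and Krt14 were at 0 in obese replicate 1. A pair of obese tumours stood apart in the chemokine genes themselves. Obese replicate 1 had the highest value of the obese tumours in all 15 members that were higher, and obese replicate 3 was the obese tumour nearest to the lean ones in 12 of the 17 members that were lower.

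Obese tumours held more RNA of the monocyte attractants Ccl2, Ccl7 and Ccl12, of the CXCR2 ligands Cxcl2, Cxcl3 and Ppbp and of the atypical receptor Ackr3. They held less RNA of Cxcl12, Cxcl13, Cxcl14, Cx3cl1 and Xcl1 and of the CXC receptors Cxcr3, Cxcr4, Cxcr5 and Cxcr6. Among these genes, Cxcl3, Ppbp, Cxcl13, Cx3cl1, Xcl1, Cxcr3 and Cxcr6 did not pass in some fits with a single tumour left out. The same genes and Cxcl2 did not pass with 1 surrogate variable in the fit. The groups overlapped in Cxcl3, Ppbp, Xcl1, Cxcr3 and Cxcr6. Of the 63 members 52 passed the filter on low counts, and edgeR's quasi-likelihood test called 15 of them higher and 17 lower in obese tumours at an adjusted p under 0.05, while 20 were not called. That is 61.5% of tested members, against 59.2% of all 14887 tested genes. Higher calls made up 30.9% and lower calls 28.4% of all genes. The share of called members is near that of all genes and is no result about chemokines. Among 32 tested ligands 11 were higher and 8 lower, and among 20 tested receptors 4 were higher and 9 lower. The median log2 change, obese over lean, was 0.71 over the ligands, −1.10 over the receptors and −0.04 over all tested genes. In 11 of the 52 tested members all 4 obese tumours lay above all 4 lean ones, which held for 28.9% of all genes. In 14 of the 52 they lay below, which held for 28.1%. A change of at least 2-fold in a called gene was seen for 31 of the 52 tested members and for 38.5% of all genes. With obese replicates 1 and 3 both left out, 13 members were called higher and 20 lower.

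**Figure D1:**
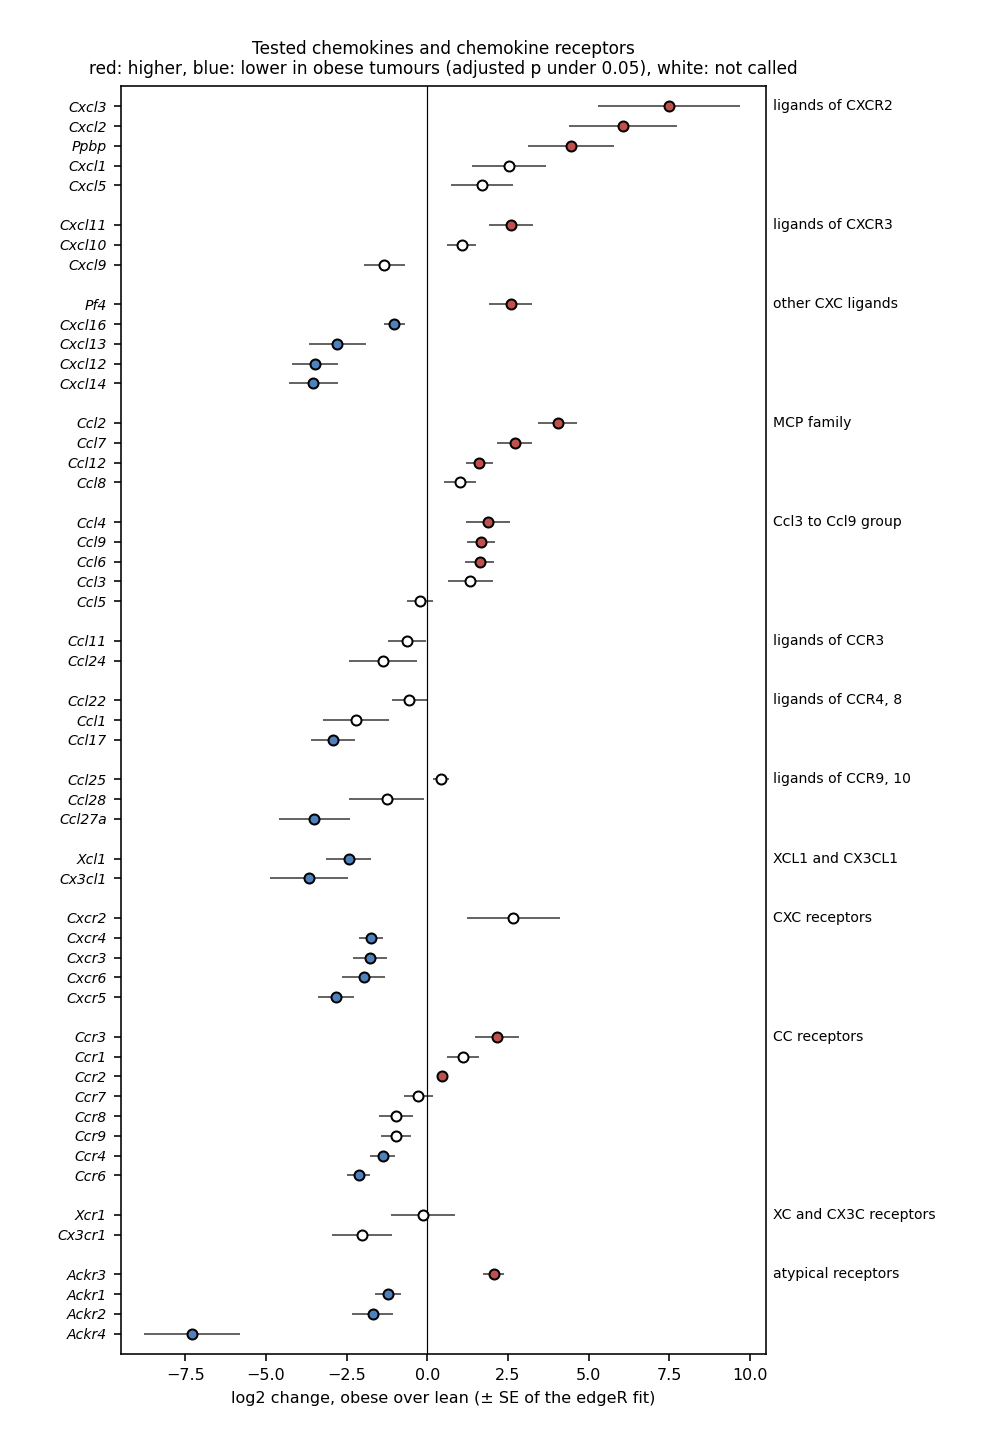
Log2 change, obese over lean, of tested members with the SE of the edgeR fit as bars, grouped by role; filled points passed an adjusted p of 0.05 (red higher, blue lower in obese tumours) and white points did not. The CXCR2 ligands and the MCP family, the group of Ccl2, stand to the right of 0, while the CXC receptors other than Cxcr2 stand to the left, with Ackr4 the lowest member at −7.30.

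Of the 63 symbols 6 were listed at 0 in every tumour, namely Ccl19, Ccl21a, Ccl21b, Ccl21c, Ccl26 and Ccl27b. For Ccl19, Ccl21a, Ccl21b and Ccl27b, 52.0% to 100% of the 50-base stretches of their annotated transcripts also occur in transcripts of other genes. Reads within such shared stretches could not have been assigned to 1 gene. Ccl19 and Ccl21a, with 52.0% and 71.6% shared, also have stretches of their own. These zeros are not read as an absence of the lymphoid CCR7 ligands, and their cause was not tested. A further 5 symbols, Ccl20, Cxcl15, Cxcl17, Ccr10 and Cxcr1, had counts too low to be tested. Cxcl17, a chemokine of mucosal epithelium, had 0, 0.0165, 0.0193 and 0 CPM in obese tumours, against 0.172, 1.19, 0.488 and 0.160 CPM in lean tumours. The other 4 reached at most 0.454 CPM in any tumour. Exons of Cxcl10, Cxcl11, Cxcl16, Cxcr5, Xcl1, Ackr4, Cx3cr1, Ccl25 and Ccr9 overlap exons of a gene on the opposite strand. Examples are Art3 for Cxcl10, Zmynd15 for Cxcl16, Bcl9l for Cxcr5, Acad11 for Ackr4 and Slc6a20a for Ccr9. Those of Ccr9 also overlap Gm17200 on the same strand. The strand setting of the counting is not given in the sources used here, so reads of such pairs may not have been told apart.

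The ligands of CXCR2, the receptor by which neutrophils follow chemokines, lie side by side on chromosome 5 (90759360 to 90905938, GRCm38) with Pf4. Of 5 tested CXCR2 ligands 3 were higher and 0 lower in obese tumours. The promoters of Cxcl1, Cxcl2 and Cxcl3 are shown because these neighbours carry the same 10 letters close to their start sites. RefSeq's table for GRCm38.p6 had a window of 250 bases before the start for 47 of the 63 members, with none for Ccl2 or Ccl7. The 120 bases before each start, 5′ to 3′ on the plus strand, are at chr5:90903779-90903898 for Cxcl2, chr5:90785981-90786100 for Cxcl3 and chr5:90891125-90891244 for Cxcl1. Capitals mark every match on either strand to GGG, any 3 letters and TTCC, the letters of NF-kB type sites.
Cxcl2: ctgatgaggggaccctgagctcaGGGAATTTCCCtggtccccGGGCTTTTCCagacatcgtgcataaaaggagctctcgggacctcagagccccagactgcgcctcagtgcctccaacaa
Cxcl3: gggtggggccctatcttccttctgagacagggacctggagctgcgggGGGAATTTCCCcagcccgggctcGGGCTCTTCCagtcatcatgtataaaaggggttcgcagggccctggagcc
Cxcl1: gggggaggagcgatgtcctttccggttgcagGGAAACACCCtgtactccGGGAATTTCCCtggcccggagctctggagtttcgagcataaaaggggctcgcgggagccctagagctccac
The run GGGAATTTCC began 97 bases before the start in Cxcl2, 73 in Cxcl3 and 71 in Cxcl1. A minus strand match overlaps it in each, shifted by 1 base. A second plus strand match lay 78 bases before the start in Cxcl2 and 50 in Cxcl3, and Cxcl1 had a minus strand match at 89. Over the whole 250 bases, the NF-kB type letters were found in 9 of 47 members (19.1%) and in 5.31% of 27025 genes. Of 10 higher members with a window 4 held it (Ccl9, Ccr3, Cxcl2 and Cxcl3), of 15 lower members 1 did (Ccr6), and of 15 members not called 3 did (Ccl1, Cxcl1 and Cxcl10). A match of letters is a description of the sequence and shows no binding.

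Cxcl2, a neutrophil attractant made by activated macrophages, had 100.5, 1.48, 5.72 and 3.91 CPM in obese tumours, against 1.15, 0.192, 0.117 and 0.213 CPM in lean tumours. All 4 obese tumours lay above the highest lean one, but obese replicate 1 was far above the other 3, and lean replicate 1 far above the other lean tumours. The log2 change was 6.07 ± 1.67 (edgeR adjusted p = 0.0161), and without obese replicate 1 it was 3.17 (edgeR adjusted p = 0.0245). Without lean replicate 1 it was 7.37. Cxcl3, its close relative, had 61.8, 0.280, 1.82 and 0.624 CPM in obese tumours, against 0.295, 0.0192, 0.0195 and 0.0355 CPM in lean tumours. Obese replicate 1 was again far above the rest, and obese replicate 2 lay just under the highest lean tumour. Its log2 change of 7.49 ± 2.20 passed (edgeR adjusted p = 0.0204) and was 3.35 without obese replicate 1 and 9.27 without lean replicate 1, while without lean replicate 2, 3 or 4 the adjusted p lay between 0.052 and 0.0568. Between Cxcl2 and Cxcl3, 5.84% and 4.24% of 50-base stretches are shared, so a small part of their reads may not be separable.

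Ppbp, the precursor of a platelet-released CXCR2 ligand, had 11.9, 2.27, 0.445 and 0.240 CPM in obese tumours, against 0.270, 0.249, 0.0976 and 0.0533 CPM in lean tumours. Obese replicates 1 and 2 stood above every lean tumour, replicate 3 less so, and replicate 4 among the lean values. It had a log2 change of 4.45 ± 1.33 (edgeR adjusted p = 0.021), or 2.58 without obese replicate 1, and the call was lost without lean replicate 3 or 4 (adjusted p 0.0556 to 0.0581). Pf4, platelet factor 4, which lies beside Ppbp, had 81.3, 40.6, 7.54 and 16.8 CPM in obese tumours, against 6.36, 6.42, 6.48 and 5.13 CPM in lean tumours. The lean tumours were close together, all obese tumours lay above them, and obese replicates 1 and 2 were the highest, with a log2 change of 2.58 ± 0.66 (edgeR adjusted p = 0.012). Leaving out obese replicate 1 gave 1.84, and limma-voom did not call it (adjusted p = 0.0563). Ppbp and Pf4 are stored in platelets, whose other tested markers Itga2b and Gp1bb were both lower in obese tumours. The summed platelet and megakaryocyte markers lay between 1.40 and 5.97 CPM in obese tumours and between 6.65 and 16.1 CPM in lean tumours. Itga2b made up most of that sum, with 15.5 of 16.1 CPM in lean replicate 3. The other listed markers, Gp9, Gp1ba and Gp6, had counts too low to be tested.

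Cxcl1 and Cxcr2 were taken for their roles after their values were seen. Cxcl1, the third of these neighbours, had 97, 5.52, 17.4 and 1.2 CPM in obese tumours, against 7.69, 4.58, 4.94 and 3.60 CPM in lean tumours. Obese replicate 1 was highest and obese replicate 4 lowest of all 8 tumours, and the log2 change of 2.54 ± 1.15 did not pass (edgeR adjusted p = 0.0876). It was 0.64 without obese replicate 1, and it passed without obese replicate 4 (2.95, edgeR adjusted p = 0.0327) and in the DESeq2 Wald test (adjusted p = 0.016). Cxcr2 itself had 24.5, 0.231, 0.986 and 1.01 CPM in obese tumours, against 2.53, 0.651, 0.547 and 0.479 CPM in lean tumours. The groups overlapped apart from obese replicate 1. Its log2 change was 2.66 ± 1.44 (edgeR adjusted p = 0.139) and turned to −0.49 without that tumour. Cxcl5, another CXCR2 ligand, reached at most 2.35 CPM and was not called (log2 change 1.68 ± 0.96, edgeR adjusted p = 0.159). Without obese replicate 1 it was 0.57, and limma-voom with quality weights called it higher (adjusted p = 0.0283).

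The same tumour was also the highest in neutrophil and inflammatory genes. S100a9, a calcium-binding protein abundant in neutrophils, had 254, 1.30, 10.8 and 10.0 CPM in obese tumours, against 15.6, 2.49, 2.81 and 2.40 CPM in lean tumours. S100a8, its partner, had 150.0, 1.53, 25.4 and 6.43 CPM in obese tumours, against 24.4, 9.52, 19.8 and 18.1 CPM in lean tumours. Il1b, the inflammatory cytokine, had 443, 15.1, 89.5 and 46.7 CPM in obese tumours, against 25.5, 12.9, 25.5 and 21.5 CPM in lean tumours. In each of the 3 genes obese replicate 1 was at least 4 times any other tumour, while obese replicate 2 was the lowest of all 8 in the S100 pair. Summed neutrophil markers were 483, 21.1, 62.1 and 45.1 CPM in obese tumours, against 60.9, 21.8, 38.4 and 43.6 CPM in lean tumours. Of 5 tested neutrophil markers 1, Mmp8, was higher and 0 lower, and the defining marker Ly6g was listed at 0. Their part in the values of Cxcl2, Cxcl3 and Ppbp was not tested.

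**Figure D2:**
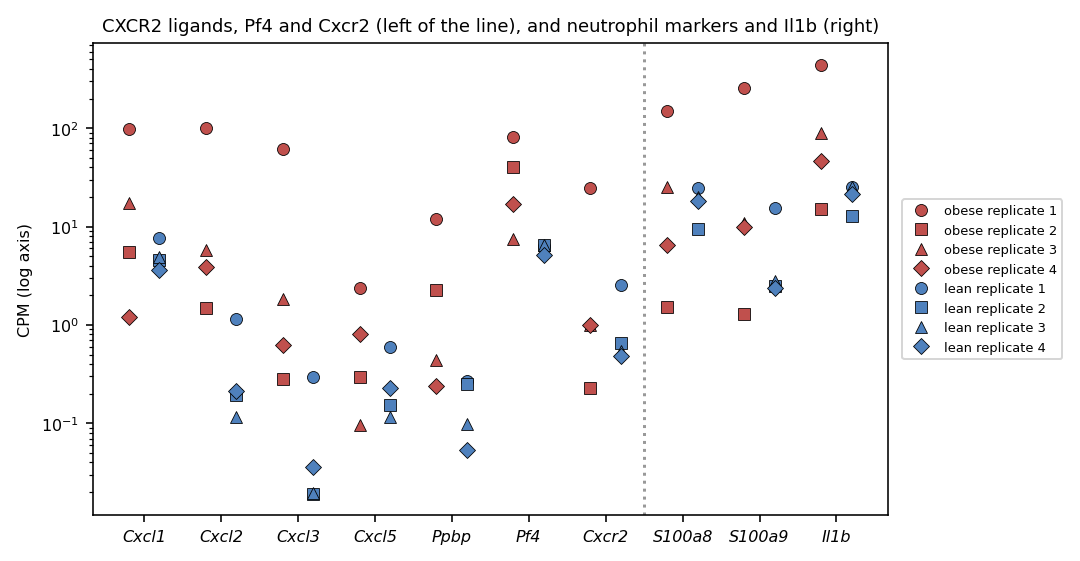
CPM (log axis) of the CXCR2 ligands, Pf4 and Cxcr2 (left of the dotted line) and of S100a8, S100a9 and Il1b (right) in each tumour, red for obese and blue for lean, with a marker shape for each replicate number. Obese replicate 1 (red circle) is the highest of the 8 tumours in all 10 genes.

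The monocyte-attracting MCP family, Ccl2, Ccl7, Ccl8 and Ccl12, lies in 1 cluster on chromosome 11 (82035571 to 82305690) together with Ccl1 and Ccl11. Of its 4 members 3 were higher and 0 lower in obese tumours. Ccl2, the main CCR2 ligand, had 483, 233, 171 and 189 CPM in obese tumours, against 29.8, 5.58, 12.2 and 17.6 CPM in lean tumours. The lowest obese tumour held over 5 times the highest lean one. The change on the log2 scale was 4.04 ± 0.60 (edgeR adjusted p = 0.00138) and ran from 3.61 to 4.54 when single tumours were left out. Ccl7, which binds CCR2 and CCR1, had 195, 190.0, 94.7 and 84.6 CPM in obese tumours, against 32.2, 6.57, 17.4 and 29.9 CPM in lean tumours. All obese tumours lay above all lean ones, with obese replicates 1 and 2 at nearly the same level and lean replicate 2 the lowest. Its log2 change was 2.71 ± 0.54 (edgeR adjusted p = 0.00445). Ccl12, a mouse CCR2 ligand, had 28.4, 21.4, 15.1 and 27.6 CPM in obese tumours, against 8.37, 2.87, 7.34 and 11.6 CPM in lean tumours. The groups did not overlap here either, though the step was smaller, with a log2 change of 1.61 ± 0.42 (edgeR adjusted p = 0.0121).

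Ccl8, which in mice acts on CCR8, had 156, 94.7, 29.97 and 166 CPM in obese tumours, against 76.8, 32.2, 54.7 and 60.3 CPM in lean tumours. Obese replicates 1 and 4 were the highest of all tumours and obese replicate 3 the lowest, so the groups overlapped. The log2 change of 1.0 ± 0.50 did not pass (edgeR adjusted p = 0.118). Without obese replicate 3 it was 1.32 and passed (edgeR adjusted p = 0.00687), as it did without obese replicates 1 and 3 (adjusted p = 0.0229) and by limma-voom with quality weights (adjusted p = 0.00486). The other neighbours, Ccl1 and Ccl11, were not called either. Ccr2, the receptor of Ccl2, Ccl7 and Ccl12 on inflammatory monocytes (chromosome 9, 124101950 to 124113557), had 47.4, 39.6, 44.3 and 44.5 CPM in obese tumours, against 30.9, 28.4, 32.7 and 35.6 CPM in lean tumours. Every obese tumour was above every lean one by a small margin, with a log2 change of 0.46 ± 0.12 (edgeR adjusted p = 0.0118). Its call depended on the scaling: with upper quartile factors or library size alone the median log2 change of all genes was −0.25 and −0.22 in place of −0.04, and the edgeR adjusted p of Ccr2 was 0.113 and 0.0733. Relative to Ptprc, the pan-leukocyte gene CD45, Ccr2 RNA was 29.5 ± 5.36% in obese and 28.7 ± 2.86% in lean tumours (SD, n = 4 each), and the groups overlapped. In the fit Ccl2 was 16.5-fold higher and its receptor 1.38-fold higher in obese tumours.

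The inflammatory ligands Ccl3, Ccl4, Ccl5, Ccl6 and Ccl9 form a second cluster on chromosome 11 (83525778 to 83664683). Of these 5 genes 3 were higher and 0 lower. Ccl6, a rodent CCR1 ligand of myeloid cells, had 132, 89.3, 27.4 and 85.9 CPM in obese tumours, against 33.5, 33.1, 25.1 and 17.3 CPM in lean tumours. Obese replicates 1, 2 and 4 stood well above the lean tumours and replicate 3 among them. The log2 change was 1.62 ± 0.44 (edgeR adjusted p = 0.0156). Ccl9, the other rodent CCR1 ligand, had 135, 85.9, 51.9 and 67.7 CPM in obese tumours, against 48.6, 24.0, 17.2 and 17.3 CPM in lean tumours. Here the groups did not overlap, by a narrow gap between obese replicate 3 and lean replicate 1, and the log2 change was 1.67 ± 0.43 (edgeR adjusted p = 0.0118). Ccl4, an attractant from macrophages and activated lymphocytes, had 53.6, 6.38, 21.6 and 19.3 CPM in obese tumours, against 7.34, 2.11, 8.10 and 10.1 CPM in lean tumours. Obese replicate 2 lay among the lean tumours. The log2 change of 1.87 ± 0.68 passed narrowly (edgeR adjusted p = 0.0438); without obese replicate 1 it was 1.2, and the adjusted p was 0.06 to 0.123 when obese replicate 1 or 4 or any lean tumour was left out.

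Ccl3, which is usually made together with Ccl4 and was chosen after its values were seen, had 28.5, 2.77, 11 and 11 CPM in obese tumours, against 4.52, 1.84, 6.28 and 8.56 CPM in lean tumours. Its highest and lowest obese tumours were those of Ccl4, and it did not pass (log2 change 1.33 ± 0.70, edgeR adjusted p = 0.13). It was 0.65 without obese replicate 1, and it passed without obese replicate 2 (1.67, edgeR adjusted p = 0.0451). Ccl5, an attractant made largely by T cells, had 57.1, 57.0, 51.3 and 51.1 CPM in obese tumours, against 65.2, 18.4, 91.8 and 77.9 CPM in lean tumours. The 4 obese values were close together and inside the lean range, and the log2 change was −0.23 ± 0.41 (edgeR adjusted p = 0.65). Its direction was not stable, at 0.02 without lean replicate 3. Without lean replicate 2 it was called lower (−0.53, edgeR adjusted p = 0.0142).

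Ccr1, a receptor of these ligands on monocytes and neutrophils, had 118, 24.3, 44.1 and 24.8 CPM in obese tumours, against 29.1, 21.6, 24.5 and 22.7 CPM in lean tumours. Obese replicates 1 and 3 alone were above the lean range, and the log2 change of 1.11 ± 0.50 did not pass (edgeR adjusted p = 0.0874) and was 0.36 without obese replicate 1. Macrophage markers were called in both directions: Itgam, an integrin of myeloid cells, had a log2 change of 2.99 ± 0.27, Mrc1 of 2.93 ± 0.57 and Adgre1 of 1.22 ± 0.21, whereas Csf1r, the receptor for macrophage growth factor, was lower (−0.54 ± 0.20). Their part in the chemokine values was not tested.

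**Figure D3:**
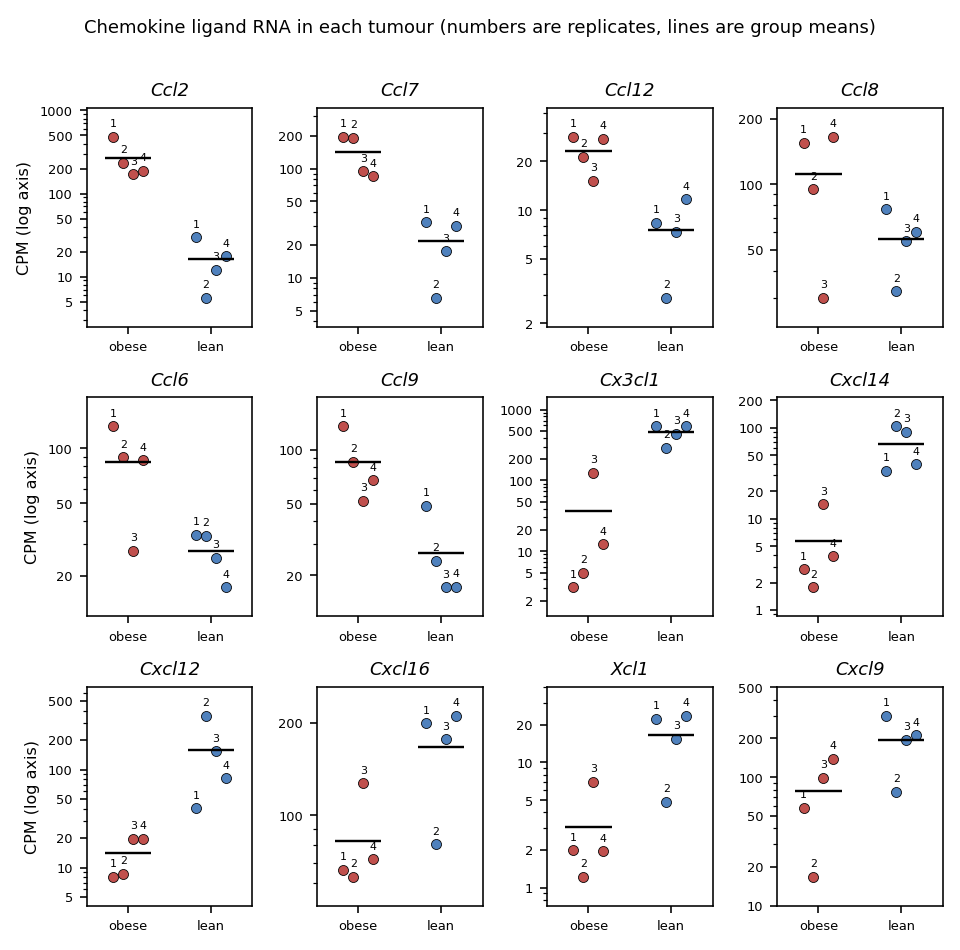
CPM (log axis) of 12 chemokine ligands in each tumour, obese in red at the left and lean in blue at the right of each panel, with replicate numbers above the points and the group mean as a line. Ccl2, Ccl7 and Ccl12 separate the groups upward in obese tumours, while in the panels of Cx3cl1, Cxcl14, Cxcl16 and Xcl1 obese replicate 3 is the obese tumour nearest to the lean ones.

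The CXCR3 ligands Cxcl9, Cxcl10 and Cxcl11, interferon-induced attractants of T cells and NK cells, are neighbours on chromosome 5 (92321347 to 92365485). They did not move as 1 block, as 1 of 3 was higher and 0 lower. The higher gene was Cxcl11, a polymorphic pseudogene in GENCODE M21, so its RNA need not stand for a working ligand. The 220 bases before the start of Cxcl10 (GRCm38.p6, chr5:92348890-92349109, minus strand, 5′ to 3′) are shown because they hold both kinds of inflammatory letters. Capitals mark GAAA, any 2 letters and GAAA, the letters of interferon-response type sites, found at 213 bases before the start, and the NF-kB type letters, found at 159 and 104, with no overlap between the matches.
Cxcl10: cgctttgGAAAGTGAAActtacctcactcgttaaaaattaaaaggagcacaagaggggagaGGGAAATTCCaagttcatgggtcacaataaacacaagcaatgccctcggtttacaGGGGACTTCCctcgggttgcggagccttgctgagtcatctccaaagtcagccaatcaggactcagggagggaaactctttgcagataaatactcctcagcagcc
The interferon-response type letters occurred, on either strand, in 3 of 47 members (6.38%) and in 3.46% of all genes. The letters ACGTG, of hypoxia-response type sites, occurred in 7 members (14.9%) and in 18.5% of all genes.

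Cxcl10 had 187, 91.6, 95.0 and 119 CPM in obese tumours, against 71.5, 17.8, 60.2 and 86.6 CPM in lean tumours. All obese tumours lay above all lean ones, yet the gap between obese replicate 2 and lean replicate 4 was small and the log2 change of 1.06 ± 0.46 did not pass (edgeR adjusted p = 0.0756), while the DESeq2 Wald test and both limma-voom fits called it higher (adjusted p 0.0139 to 0.0483). Cxcl9 had 57.8, 16.8, 99.2 and 138 CPM in obese tumours, against 300.0, 77.1, 196 and 212 CPM in lean tumours. It leaned the other way, with lean replicate 1 highest and obese replicate 2 lowest, and did not pass (log2 change −1.33 ± 0.63, edgeR adjusted p = 0.101), though it was called lower by the DESeq2 Wald test (adjusted p = 0.0308) and by limma-voom with quality weights (adjusted p = 0.0434). Cxcl11, which GENCODE M21 classes as a polymorphic pseudogene, had 8.84, 2.36, 5.12 and 4.08 CPM in obese tumours, against 0.786, 0.172, 0.878 and 1.53 CPM in lean tumours. No obese value lay in the lean range, and the log2 change was 2.59 ± 0.68 (edgeR adjusted p = 0.0126). It was not called without obese replicates 1 and 3 (1.95, edgeR adjusted p = 0.0536).

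Cxcr3, their receptor on effector T cells, had 3.39, 1.27, 7.12 and 3.36 CPM in obese tumours, against 14.8, 6.5, 14.3 and 16.4 CPM in lean tumours. Obese replicate 3 overlapped with lean replicate 2, and the other obese tumours were below all lean ones. Its log2 change was −1.78 ± 0.53 (edgeR adjusted p = 0.0208), and the adjusted p was 0.0504 to 0.0553 without obese replicate 1 or 4. T cell markers were lower beside it: Cd3e had a log2 change of −2.19 ± 0.51 and Cd8a of −2.36 ± 0.68, and 9 of 10 T cell markers passed. Of 11 listed genes of the interferon arm 2 were higher and 3 lower, beside 30.9% and 28.4% of all tested genes. The higher ones were Ifnb1, interferon beta (3.21 ± 0.57), and Stat2, a transcription factor of interferon signalling (0.89 ± 0.29), and the lower ones were the receptor chains Ifngr1 (−0.51 ± 0.16), Ifngr2 (−0.50 ± 0.18) and Ifnar2 (−0.73 ± 0.19). Without obese replicate 1, 2 or 4 or lean replicate 1, just 1 of that list was lower, and without lean replicate 2 the number was 5.

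Cxcl12, the ligand of CXCR4 and of the scavenger ACKR3, is made by fibroblasts, endothelium and bone marrow stroma and is encoded on chromosome 6 (117168535 to 117181367). It had 8.05, 8.65, 19.7 and 19.7 CPM in obese tumours, against 40.1, 353, 154 and 81.6 CPM in lean tumours. The highest obese tumours, replicates 3 and 4, lay below the lowest lean tumour, and lean replicate 2 was the highest. The change on the log2 scale was −3.48 ± 0.72 (edgeR adjusted p = 0.00527), or −2.71 without lean replicate 2. Cxcr4, its signalling receptor, had 25.2, 19.3, 48.1 and 15.0 CPM in obese tumours, against 127, 72.5, 85.6 and 77.0 CPM in lean tumours. The groups did not overlap, and obese replicate 3 was the nearest to the lean tumours, with a log2 change of −1.75 ± 0.38 (edgeR adjusted p = 0.00607). Ackr3, the atypical receptor that takes up CXCL12, moved the opposite way, with 97.6, 49.4, 59.1 and 61.6 CPM in obese tumours, against 23.6, 9.16, 13.7 and 17.9 CPM in lean tumours. Every obese tumour had more than 2 times the RNA of every lean one, and the log2 change was 2.06 ± 0.33 (edgeR adjusted p = 0.00189). Ligand and signalling receptor were thus lower while the scavenger was higher. Fibroblast markers went both ways, as Dcn (−1.72 ± 0.45) and Lum (−1.32 ± 0.35), proteoglycans of the matrix, were lower and Pdgfra (1.44 ± 0.37), Pdgfrb (1.8 ± 0.35) and Col3a1 (1.73 ± 0.44) were higher in obese tumours, and of 8 blood endothelial markers 4 were lower and 0 higher. Their part in the Cxcl12 difference was not tested.

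Cxcl14, a chemokine of epithelium and fibroblasts whose receptor is not settled, had 2.81, 1.78, 14.5 and 3.89 CPM in obese tumours, against 33.8, 104, 89.9 and 39.7 CPM in lean tumours. All obese values were below all lean ones, and obese replicate 3 was well above the other obese tumours. The log2 change was −3.54 ± 0.76 (edgeR adjusted p = 0.00625), and −4.56 without obese replicate 3. Cxcl13, the B cell attractant of lymphoid follicles, had 0, 0.313, 0.213 and 0.984 CPM in obese tumours, against 1.94, 3.68, 2.60 and 2.43 CPM in lean tumours. It was low in every tumour with a count of 0 in obese replicate 1, which allows up to 0.124 CPM, and without overlap between the groups. Its log2 change of −2.79 ± 0.89 passed (edgeR adjusted p = 0.0277), and the adjusted p was 0.05 to 0.0667 without obese replicate 2 or lean replicate 2, 3 or 4. Without obese replicate 4 the log2 change was −3.79. Cxcr5, its receptor on B cells and follicular T cells, had 0.991, 0.165, 0.599 and 0.552 CPM in obese tumours, against 5.38, 4.69, 2.52 and 3.59 CPM in lean tumours. The highest obese tumour lay below the lowest lean one, with a log2 change of −2.83 ± 0.55 (edgeR adjusted p = 0.00411). B cell markers were lower too, 5 of 6, among them Ms4a1, a B cell surface protein, by a log2 change of −4.53 ± 0.52. Their part in the Cxcr5 values was not tested.

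Cxcl16, a membrane-bound ligand of myeloid cells and epithelium that ADAM10 sheds, had 66.5, 63.0, 127 and 72.0 CPM in obese tumours, against 199, 80.5, 177 and 210.3 CPM in lean tumours. Lean replicate 2 lay among the obese tumours and obese replicate 3 above the other obese ones. It had a log2 change of −1.02 ± 0.34 (edgeR adjusted p = 0.0334), and the call was lost without obese replicate 1, 2 or 4 or lean replicate 1, 3 or 4 (edgeR adjusted p 0.0612 to 0.0844). Cxcr6, its receptor on activated T cells and NKT cells, had 3.18, 1.09, 11.8 and 5.42 CPM in obese tumours, against 23.3, 10.3, 26.3 and 24.9 CPM in lean tumours. The obese replicate 3 value was above that of lean replicate 2. With a log2 change of −1.98 ± 0.67 it passed (edgeR adjusted p = 0.0341), but not without obese replicate 1 or 4 or lean replicate 1, 3 or 4 (edgeR adjusted p 0.0584 to 0.0814). Without obese replicate 3 the log2 change was −2.71.

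Cx3cl1, fractalkine, is the membrane-bound ligand of CX3CR1 and is made by epithelium, endothelium and neurons; its gene lies between Ccl22 and Ccl17 on chromosome 8 (94745590 to 94812036). It had 3.10, 4.95, 129 and 12.6 CPM in obese tumours, against 581, 291, 458 and 580.2 CPM in lean tumours. Obese replicate 3 was more than 10 times the next obese tumour and still below all lean tumours. Its log2 change was −3.67 ± 1.21 (edgeR adjusted p = 0.0309) and reached −6.10 without obese replicate 3. The call was lost without obese replicate 2 or 4 or lean replicate 1, 3 or 4 (edgeR adjusted p 0.0507 to 0.0744). Cx3cr1, its receptor on patrolling monocytes, macrophages and dendritic cells, had 1.94, 2.52, 44.1 and 15.0 CPM in obese tumours, against 55.3, 45.4, 75.2 and 86.0 CPM in lean tumours. Obese replicate 3 nearly reached the lowest lean tumour, the groups did not overlap, and the log2 change of −2.04 ± 0.93 did not pass (edgeR adjusted p = 0.0896). Without obese replicate 3 it was −3.31 (edgeR adjusted p = 0.00626). The summed epithelial markers were likewise highest in replicate 3 and lowest in replicate 1 among obese tumours, and their part in the Cx3cl1 values was not tested.

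Xcl1, which NK cells and CD8 T cells release to draw cross-presenting dendritic cells, had 1.98, 1.22, 7.04 and 1.94 CPM in obese tumours, against 22.4, 4.85, 15.4 and 23.6 CPM in lean tumours. Obese replicate 3 lay above lean replicate 2 and the other obese tumours below every lean one. The change on the log2 scale was −2.44 ± 0.69 (edgeR adjusted p = 0.0176), and without obese replicate 4 the adjusted p was 0.0501. Without obese replicate 3 the log2 change was −3.27. Its receptor Xcr1, found on those dendritic cells and chosen for its role after its values were seen, had 0.0826, 0.363, 2.63 and 5.59 CPM in obese tumours, against 3.14, 1.84, 2.17 and 2.40 CPM in lean tumours. Obese replicates 1 and 2 were the lowest and replicates 3 and 4 within or above the lean values, and the log2 change of −0.13 ± 0.99 did not pass (edgeR adjusted p = 0.913); it was 0.27 without obese replicate 1, 0.23 without obese replicate 2, −1.19 without obese replicate 4 and 0.01 when lean replicate 1 was left out. Of 7 dendritic cell markers 4 were lower and 0 higher, among them Clec9a (−2.06 ± 0.55) and Batf3 (−2.01 ± 0.45), which mark the same cells.

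Ccl17, a ligand of the T cell receptor CCR4 made by dendritic cells, had 0.330, 0.214, 0.348 and 0.480 CPM in obese tumours, against 6.46, 1.19, 1.05 and 1.76 CPM in lean tumours. Lean replicate 1 was more than 3 times the other lean tumours, and all obese values were below the lean ones. The log2 change was −2.92 ± 0.69 (edgeR adjusted p = 0.00852), or −1.95 without lean replicate 1. Ccl22, the other CCR4 ligand, chosen after its values were seen, had 13.1, 6.12, 6.98 and 4.70 CPM in obese tumours, against 21.5, 3.49, 9.72 and 11 CPM in lean tumours. It overlapped and did not pass (log2 change −0.56 ± 0.55, edgeR adjusted p = 0.389). Ccr4 had 0.330, 0.363, 0.541 and 0.288 CPM in obese tumours, against 1.5, 0.690, 1.01 and 0.835 CPM in lean tumours. It was low in all tumours and without overlap, with a log2 change of −1.39 ± 0.38 (edgeR adjusted p = 0.0148). Ccr6, a receptor of B cells and IL-17 producing T cells, had 0.248, 0.346, 0.406 and 0.240 CPM in obese tumours, against 1.65, 1.53, 0.917 and 1.42 CPM in lean tumours. Its groups did not overlap, and the log2 change was −2.13 ± 0.35 (edgeR adjusted p = 0.002).

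Ccl27a, a skin chemokine of keratinocytes that acts on CCR10, had 0.165, 0.280, 3.83 and 0.168 CPM in obese tumours, against 15.8, 8.16, 11 and 15.8 CPM in lean tumours. The other obese tumours held at most 0.280 CPM, and obese replicate 3 was still below all lean tumours. It had a log2 change of −3.50 ± 1.10 (edgeR adjusted p = 0.0259), −5.89 without obese replicate 3, and the adjusted p was 0.0518 to 0.058 without obese replicate 2 or 4. Because 45.0% of its 50-base stretches are shared with copies and its exons overlap Il11ra1 on the opposite strand, its counts are uncertain. Ccr3, the eosinophil and basophil receptor, chosen after its values were seen, had 1.40, 0.478, 0.193 and 0.792 CPM in obese tumours, against 0.246, 0.0958, 0.215 and 0.0710 CPM in lean tumours. The log2 change of 2.16 ± 0.69 passed (edgeR adjusted p = 0.0267) at under 1 CPM in most tumours, and the adjusted p was 0.0502 to 0.0709 without obese replicate 1 or 4 or lean replicate 2, 3 or 4. The eosinophil markers Siglecf (−1.54 ± 0.49) and Prg2 (−5.50 ± 0.96) were lower, while the mast cell genes Cpa3 (3.36 ± 0.80), Mcpt4 (2.55 ± 0.77) and Fcer1a (2.88 ± 1.05) were higher in obese tumours. The members of these groups that were not called were Ccl1, Ccl11, Ccl24, Ccl25, Ccl28, Ccr7, Ccr8 and Ccr9, with log2 changes from −2.21 in Ccl1 to 0.42 in Ccl25. Among them the groups were free of overlap in Ccr9, with 2.56, 0.577, 1.99 and 2.02 CPM in obese tumours, against 2.97, 2.66, 4.65 and 3.80 CPM in lean tumours (edgeR adjusted p = 0.0977).

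**Figure D4:**
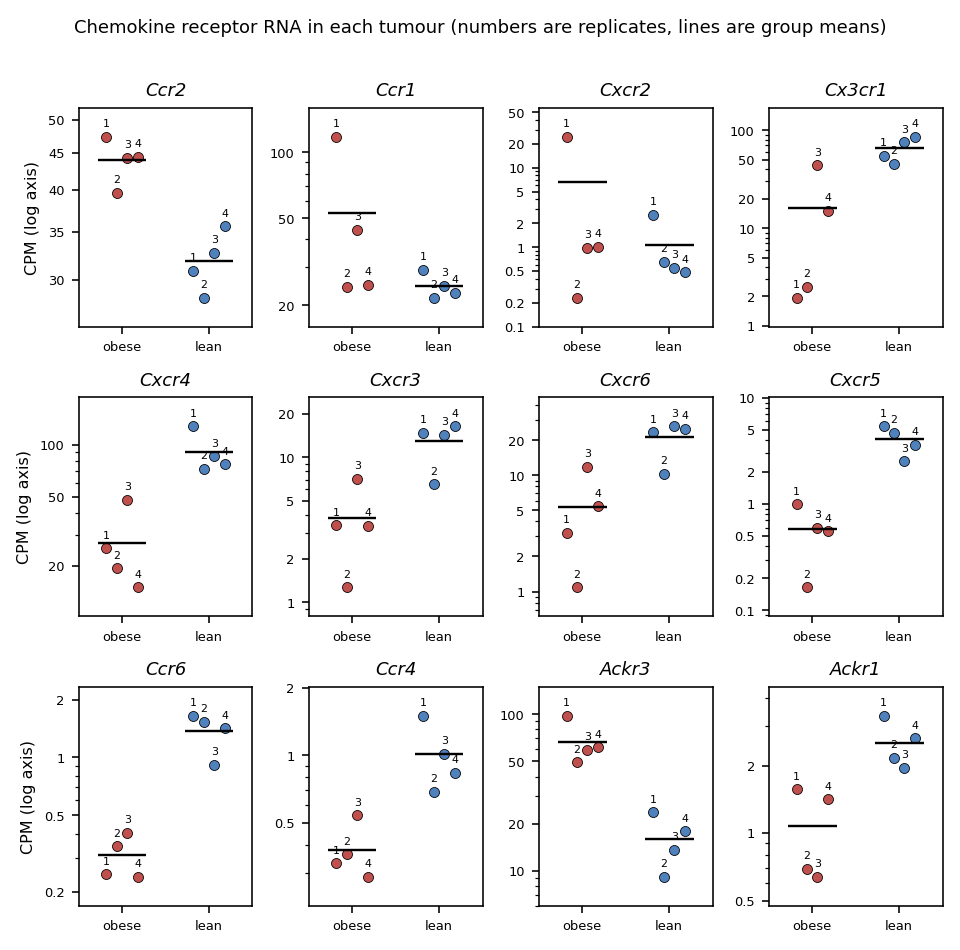
CPM (log axis) of 12 chemokine receptors in each tumour, obese in red at the left and lean in blue at the right of each panel, with replicate numbers above the points and the group mean as a line. Ccr2 and Ackr3 lie higher in all 4 obese tumours, and Cxcr4, Cxcr5, Ccr6, Ccr4 and Ackr1 lower in all 4.

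Of the other atypical receptors, all 3 were lower in obese tumours. Ackr4, a scavenger of CCL19, CCL21 and CCL25 in lymphatic endothelium, epithelium and stroma, had 0, 0.231, 0.309 and 0.0720 CPM in obese tumours, against 3.73, 84.9, 14.0 and 3.44 CPM in lean tumours. It was low in obese tumours, with a count of 0 in replicate 1, and spread widely among the lean ones, with lean replicate 2 far above the others. Its log2 change was −7.30 ± 1.5 (edgeR adjusted p = 0.00522), or −5.42 without lean replicate 2. Ackr1, which carries chemokines across venules and on red cells, had 1.57, 0.692, 0.638 and 1.42 CPM in obese tumours, against 3.34, 2.17, 1.95 and 2.65 CPM in lean tumours. The groups did not overlap, with a log2 change of −1.23 ± 0.40 (edgeR adjusted p = 0.03); the adjusted p was 0.0502 to 0.0869 without obese replicate 2 or 3 or lean replicate 1, 3 or 4, and 20.4% of its 50-base stretches are shared with Cadm3. Ackr2, a scavenger of inflammatory CC ligands in lymphatic endothelium, had 0.248, 0.231, 1.22 and 0.480 CPM in obese tumours, against 1.99, 2.11, 2.32 and 0.746 CPM in lean tumours. Obese replicate 3 was above lean replicate 4, and the log2 change of −1.70 ± 0.63 passed narrowly (edgeR adjusted p = 0.0471), with 0.079 to 0.105 without any 1 of obese replicates 1, 2 and 4 and lean replicates 1, 2 and 3. Without obese replicate 3 the log2 change was −2.46. Of 3 tested lymphatic markers 2, Pdpn and Flt4, were lower in obese tumours. Lyve1 did not pass (log2 change −0.16 ± 0.53, edgeR adjusted p = 0.801). The summed markers came to 19.0 to 22.5 CPM in obese tumours, against 34.8 to 254 CPM in lean tumours. Lean replicate 2 had the highest sum, as it was the highest for Ackr4, and Pdpn alone held 228 of its 254 CPM. The part of these markers in the Ackr4 and Ackr2 values was not tested.

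Levels were compared between ligands per length, as CPM per kb of annotated exons, and expressed as shares of the summed ligand RNA of each tumour. The sum was 1710.0, 959, 698 and 988 CPM per kb in obese tumours, against 826, 405, 684 and 752 CPM per kb in lean tumours, so the groups overlapped in the total. Its make-up differed. By mean share, Ccl2 was the largest ligand in obese tumours at 21.1%, against 2.0% and rank 13 in lean tumours. In single obese tumours Ccl2 led in replicates 1 and 3, Ccl7 in replicate 2 (24.7%) and Ccl8 in replicate 4 (32.8%). Cx3cl1, at rank 14 in obese tumours with a mean share of 1.30%, had the largest mean share in lean tumours, 18.2%, where it led in replicates 2, 3 and 4, while Ccl8 led narrowly in lean replicate 1. Ccl8 was second in both groups, at 19.6% in obese and 16.3% in lean tumours, and Ccl7 held 16.7% in obese and 3.76% in lean tumours. Of the ligands with smaller shares in obese tumours, Cxcl9 held 2.77% there and 9.30% in lean tumours, Cxcl16 2.98% and 8.09%, Cxcl14 0.385% and 6.59%, and Cxcl12 0.189% and 3.83%. These shares are means over 4 tumours and carry no test.

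**Figure D5:**
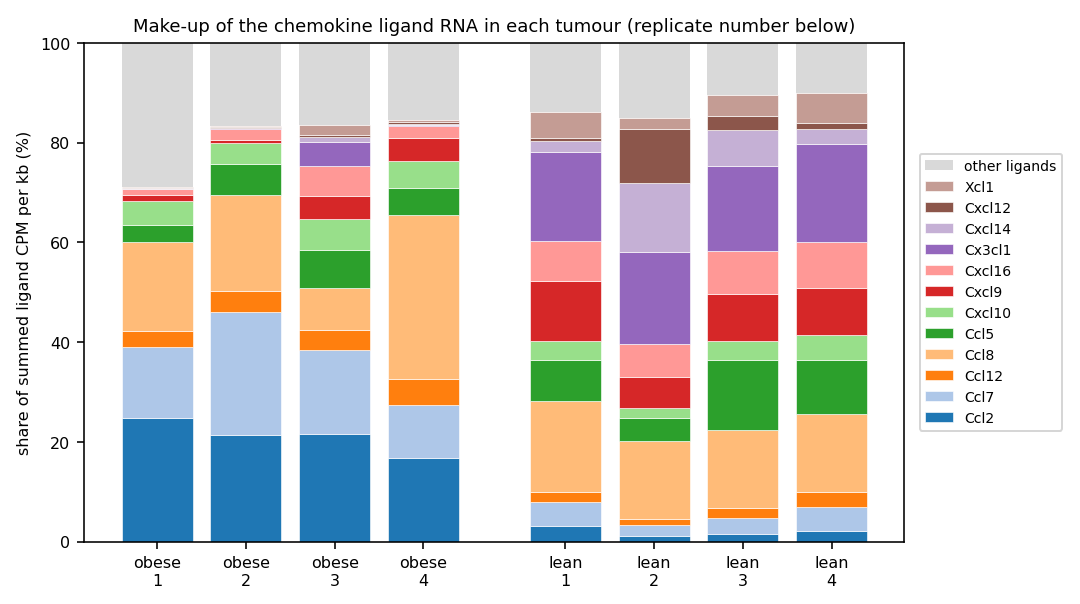
Share of each ligand in the summed ligand CPM per kb of exon (percent), stacked for each tumour, obese at the left and lean at the right. Ccl2 takes 16.8% to 24.8% of the bar in obese tumours, against 1.21% to 3.17% in lean tumours, and Cx3cl1 0.0461% to 4.71% in obese tumours, against 17.0% to 19.6% in lean tumours.

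Receptor RNA was also set against Ptprc, whose own level of 137, 118, 172 and 185 CPM in obese and 123, 88.8, 117 and 120.2 CPM in lean tumours did not pass (log2 change 0.45 ± 0.18, edgeR adjusted p = 0.0571). Cxcr4 came to 17.7 ± 8.19% of Ptprc in obese and 80.6 ± 16.9% in lean tumours (SD, n = 4 each). Cx3cr1 came to 9.34 ± 11.3% in obese and 58.0 ± 12.2% in lean tumours, Cxcr6 to 3.26 ± 2.56% and 18.4 ± 4.82%, and Cxcr3 to 2.38 ± 1.31% and 11.3 ± 2.74%. In these 4 receptors the obese tumours all lay below the lean ones, also where the CPM values had overlapped. Ccr7, a receptor of mature dendritic cells and naive T cells, overlapped at 9.45 ± 4.97% in obese and 14.9 ± 5.21% in lean tumours.

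Called neighbours on a chromosome shared 1 direction, apart from 1 cluster, though a cluster with 1 call could not differ. The shares over all tested genes were 30.9% higher and 28.4% lower, and each cluster holds few genes. In the cluster of Ccl2 3 of 6 genes were higher and 0 lower, in that of Ccl5 3 of 5 and 0, in that of the CXCR2 ligands 4 of 6 tested and 0, and in that of Cxcl10 1 of 3 and 0. Of the members not called in these clusters, Ccl1, Ccl11, Ccl5 and Cxcl9 leaned lower, and Ccl8, Ccl3, Cxcl1, Cxcl5 and Cxcl10 leaned higher. In the chromosome 8 cluster 0 were higher and 2 of 3 lower. On chromosome 4 just 1 of 5 genes was tested, Ccl27a, which was lower. The receptor cluster on chromosome 9 was mixed, with Ccr2 and Ccr3 higher and Cxcr6 lower. These counts are a description, and the clusters were formed from annotated positions alone.

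The genes that act beside the chemokines were read from lists. Over all tested genes 30.9% were higher and 28.4% lower, with a median log2 change of −0.04, and the counts below stand beside these shares. Of 32 tested genes of chemokine receptor signalling 9 were higher and 5 lower, with a median log2 change of 0.18, and Grk2 and Grk3 were listed at 0. Higher were Gng2, a G protein gamma subunit (1.73 ± 0.13), Grk5, a receptor kinase (2.17 ± 0.34), and Ptk2b, the kinase PYK2 (1.55 ± 0.21), and lower were Arrb1, beta-arrestin 1 (−1.74 ± 0.23), Tiam1 and Elmo1, activators of Rac (−2.41 ± 0.41 and −1.46 ± 0.33). Of 17 genes of chemokine processing and presentation 8 were higher and 2 lower, with a median of 0.50. Adam17, a sheddase of CX3CL1, was higher (0.90 ± 0.16), and Adam10 did not pass (−0.08 ± 0.19, edgeR adjusted p = 0.736). Mmp12, a macrophage metalloelastase that cuts chemokines (3.24 ± 0.85), and Sdc1, a heparan sulphate carrier (1.06 ± 0.26), were higher, while Ext1, a heparan sulphate polymerase (−0.87 ± 0.26), and Ndst1, a heparan sulphate sulphotransferase (−0.61 ± 0.21), were lower. The count of higher genes on that list was 5 without lean replicate 2 or 4, and that of lower genes was 0 without obese replicate 4.

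Of 17 genes of NF-kB and inflammatory induction 9 were higher and 0 lower, with a median of 0.77. They included Rela (0.99 ± 0.21), Rel (1.62 ± 0.24) and Nfkb2 (1.07 ± 0.30), subunits of NF-kB, Il17ra, a receptor chain for IL-17 (1.29 ± 0.17), Il6 (3.11 ± 0.80) and Il1b (2.80 ± 0.95). Rel had 8.92, 8.21, 6.28 and 7.05 CPM in obese tumours, against 2.92, 2.13, 2.36 and 2.47 CPM in lean tumours, without overlap between the groups. Il6, a cytokine induced by NF-kB, had 9.54, 1.02, 2.03 and 1.63 CPM in obese tumours, against 0.442, 0.651, 0.293 and 0.249 CPM in lean tumours, with obese replicate 1 again the highest. Of 7 related genes outside the symbol rule 1, Cd74, was lower (−2.79 ± 0.74, edgeR adjusted p = 0.0138); it encodes the invariant chain of MHC class II and a receptor of the cytokine MIF. Over all tested genes 30.9% were higher and 28.4% lower. These lists were read gene by gene, and no list was tested as a set.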

How the data were processed

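Messenger RNA was measured by RNA sequencing of 8 tumours, 4 per group, and the authors deposited 1 table of raw counts, that is, reads assigned to each Ensembl mouse gene in each tumour. Per the labels' protocols, total RNA came from frozen tumours and the library kit (TruSeq) keeps strand. The submitters' processing notes name STAR 2.5.2b, HTSeq, cutadapt 1.12, bcl2fastq 2.18.0.12 and CASAVA 1.8, and mm10 as the build. The annotation, the strand setting and the treatment of reads with several positions are not given in the sources used here. Symbols and positions came from GENCODE M21 (GRCm38), which matched 49412 of 50143 IDs. In the file 30886 IDs had a count of 0 in every tumour, among them all 37 mitochondrial genes, so a member is called listed at 0 and not absent. Of 14945 IDs with a total of at least 100 counts, 261 repeated the 8 counts of another ID, and 2 such IDs that repeat Ccl27a were counted once with it.

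Genes were kept by edgeR's filterByExpr (minimum count 10, minimum total 15), scaled by TMM and tested, obese over lean, by the two-sided robust quasi-likelihood test of edgeR. All 14887 tested genes entered the Benjamini-Hochberg adjustment, and calls were made at 0.05. SE is the log2 change over the square root of F. Values per kb use the summed length of annotated exons. Per-tumour values were given for called members with a mean of at least 1 CPM in a group, for the 6 most abundant members not called, and for up to 6 further members chosen by role after their values were seen, and some results are not reported here. Members, lists and alternatives were chosen with earlier results of these data known. Alternatives were other scaling (DESeq2 size factors, upper quartile, library size), other filters (none, 1 CPM in 4 tumours), the DESeq2 Wald test, limma-voom, that with quality weights, 1 surrogate variable and each tumour left out. Counting repeated IDs once and leaving out obese replicates 1 and 3 together were added after the data were seen. Replicate numbers only name tumours. Software was edgeR 4.0.16, DESeq2 1.42.0, limma 3.58.1 and sva 3.50.0 under R 4.3.3. On simulated counts for obese against lean (14736 genes), edgeR called 64.8% of 105 genes changed 4-fold, 6.59% of 91 changed 2-fold and 5 unchanged genes. Just these few genes were changed there, whereas 59.2% of tested genes were called in the data. The adjusted threshold was therefore stricter in the simulation, and its shares do not carry over to the data. Promoter windows came from RefSeq (GRCm38.p6), and protein sequences were not used here. Limits from 0 counts cover counting error only.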

Additional observations from a re-analysis of the deposited data

Results flagged for a closer look

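Within each group of 4 tumours, single values were examined for a gap to the nearest other tumour that exceeded Dixon's critical value of 0.829 of the group's range, in 74 groups of named members. The critical value marks about 1 in 20 groups where values are normally distributed and groups are independent. CPM values need not be normal, and the 74 groups share the same tumours. The 12 values that passed are therefore a description and are not set against chance. Obese replicate 3 was the high value in 5 of them: 3.83 CPM of Ccl27a, where the other obese tumours held 0.165 to 0.280 CPM, 129 CPM of Cx3cl1 (others 3.10 to 12.6), 14.5 CPM of Cxcl14 (others 1.78 to 3.89), 127 CPM of Cxcl16 (others 63.0 to 72.0) and 7.04 CPM of Xcl1 (others 1.22 to 1.98). Obese replicate 1 stood apart with 100.5 CPM of Cxcl2 (others 1.48 to 5.72) and 61.8 CPM of Cxcl3 (others 0.280 to 1.82). Lean replicate 1 stood apart in the same pair of genes, with 1.15 CPM of Cxcl2 (others 0.117 to 0.213) and 0.295 CPM of Cxcl3 (others 0.0192 to 0.0355), and with 6.46 CPM of Ccl17 (others 1.05 to 1.76). Lean replicate 2 held 84.9 CPM of Ackr4 (others 3.44 to 14.0). Lean replicate 4 was the low value in Pf4, with 5.13 CPM (others 6.36 to 6.48), a gap of little size. The causes of these gaps were not tested.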

How the results depend on the processing

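Of the 32 called members 13 stayed past the threshold in every other setting that tested them, which was 19 settings for 11 of them and 18 for Ccr4 and Ccr6, too low for 1 CPM in 4 tumours. A further 19 lost the call in at least 1, and 0 changed sign. With 1 surrogate variable 8 members were called higher and 9 lower, and 2688 of all genes lower; the 15 calls lost were Cxcl2, Cxcl3, Ppbp, Ccl4, Ccl6, Ccl9, Ccl27a, Cxcl13, Cxcl16, Cx3cl1, Xcl1, Ccr3, Cxcr3, Cxcr6 and Ackr1 (adjusted p 0.0553 to 0.152). With limma-voom Cxcl3, Ppbp, Pf4 and Ccl4 were lost, and Ccl4 also with upper quartile factors, library size alone and 1 CPM in 4 tumours. Ackr2 was lost with no filter, and Cxcl3, Ccl4 and Cxcl11 without obese replicates 1 and 3. Calls were also gained among the members tested in the main fit. They were 11 with quality weights and 5 with the DESeq2 Wald test (Ccl1, Cx3cr1, Cxcl1, Cxcl9 and Cxcl10). Limma-voom gained 4 (Ccl1, Ccr9, Cx3cr1 and Cxcl10), and 3 were gained without obese replicates 1 and 3 (Ccl8, Ccl28 and Cx3cr1). Up to 4 were gained with 1 tumour left out (Ccl1, Ccl8, Ccl28 and Cx3cr1 without obese replicate 3). The totals of called members in a setting also take in members that the main fit did not test. With single tumours left out, the lower members numbered 10 to 19 and those without overlap below lean 13 to 22, and this count was 22 without obese replicates 1 and 3. Members that were not called changed direction in some settings: Ccl11 to 0.15 and Cxcl1 to −0.61 with limma-voom and quality weights, Ccl5 to 0.06 with the surrogate variable, and Cxcl1 to −0.61, Cxcr2 to −0.76 and Xcr1 to 0.33 without obese replicates 1 and 3. With single tumours left out, their log2 changes ran from −1.01 to 0.11 in Ccl11, from −2.01 to 0.31 in Ccl24, from −0.53 to 0.02 in Ccl5, from −0.58 to 0.03 in Ccr7, from −0.49 to 3.64 in Cxcr2 and from −1.19 to 0.27 in Xcr1. Processing genes called higher numbered 5 with upper quartile factors, library size alone or 1 CPM in 4 tumours, 2 with the surrogate variable and 5 to 8 with single tumours left out; those called lower numbered 1 with the surrogate variable or without obese replicates 1 and 3, and 0 to 2 with single tumours left out. The related genes outside the rule had 2 lower with DESeq2 or upper quartile factors, library size alone, 1 CPM in 4 tumours, limma-voom or without obese replicates 1 and 3, 3 with quality weights or the DESeq2 Wald test, 0 with the surrogate variable and 1 to 2 with single tumours left out. In the interferon arm 1 was higher and 5 lower with upper quartile factors, library size alone or 1 CPM in 4 tumours, 7 lower with quality weights, 5 lower with the Wald test, 0 lower with the surrogate variable, 1 higher without obese replicates 1 and 3, and 1 to 2 higher and 1 to 5 lower with single tumours left out. Signalling genes called lower were 8 with quality weights, and NF-kB genes called lower were 3 with quality weights and without obese replicates 1 and 3, and 0 to 1 with single tumours left out. The cause of these changes was not tested. No paired analysis was possible because the replicate numbers only name tumours and the labels give no pairing.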
